A study of Mus musculus with 6 samples.

Results

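The genes described here encode the enzymes, carriers and nuclear regulators of fatty acid oxidation and of fatty acid synthesis and storage, read in intact islets of the pancreas, small endocrine organs in which beta cells make insulin. They are 39 named mouse genes among the 56980 Ensembl gene IDs of the count table, and all 39 were found by symbol and passed the filter on low counts. The oxidation arm holds 21 genes, the synthesis and storage arm 14, and 4 more are nuclear regulators. RNA was sequenced in 6 libraries from islets of mice aged 14 weeks. The 3 knockout libraries came from mice labelled SSBP3F/F; MIP-CreER, which carried floxed alleles of Ssbp3 and a tamoxifen-inducible Cre recombinase driven by the mouse insulin promoter. The 3 control libraries came from their littermates with the floxed alleles alone, labelled SSBP3F/F. Ssbp3 encodes a co-regulator that works with the LIM-domain-binding protein LDB1, and the comparison asks how its loss alters islet gene expression. No library carried MIP-CreER with intact Ssbp3, so the transgene and the loss of Ssbp3 cannot be told apart. The labels do not say if a library was made from 1 animal or several, so every p-value is set against library-to-library spread, some of which could be technical.

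Fatty acids enter cells partly through the scavenger receptor CD36 and are activated to acyl-CoA by ACSL enzymes. Long chains then cross into mitochondria on carnitine and are shortened by beta-oxidation, while peroxisomes run a related cycle on very long and dicarboxylic chains. Synthesis runs the other way, from citrate through acetyl-CoA and malonyl-CoA to palmitate, which is elongated, desaturated and stored as triglyceride. Malonyl-CoA blocks the entry of acyl chains into mitochondria, and in beta cells glucose raises malonyl-CoA, so that long-chain acyl-CoA stays in the cytosol.

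Libraries held 14907641 to 93841878 counts in the knockout group and 17587055 to 225428920 in the control group, and the first library of each group was the shallowest. Ssbp3 itself measured 52.3, 58.1 and 57.1 CPM (the usual depth-scaled read count, with library sizes scaled by TMM factors) in knockout 1, 2 and 3, against 65.8, 81.3 and 74.2 CPM in control 1, 2 and 3. It was not called (log2 fold change -0.40, SE 0.117, adjusted p by edgeR 0.0581), although 6 of 15 alternatives called it lower. The sources used here do not state which part of the gene is removed, and the count covers the whole gene in all islet cells. Ins1 and Ins2 together took 120960 to 139193 CPM in knockout and 162930 to 216423 CPM in control libraries, so both groups were islets by their main hormone. Of 18558 genes tested by edgeR, 691 were called higher and 621 lower in knockout islets at an adjusted p under 0.05, and with upper-quartile scaling 613 and 829.

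Of the 39 fatty acid genes, 3 rose in knockout islets and 0 fell. They were Cpt1a, which loads long acyl chains onto carnitine at the mitochondrial outer membrane, Ehhadh, the bifunctional enzyme of the peroxisomal cycle, and Dgat2, which makes triglyceride from diacylglycerol. The 3 genes make 7.69% of the members, beside 7.07% called among all genes tested, so the share called was near that of the background. Rises made up 2 of 21 genes in the oxidation arm and 1 of 14 in the synthesis and storage arm, against 3.72% of all genes tested. The falls numbered 0 in both arms, against 3.35% of all genes tested. At an unadjusted p under 0.05 edgeR listed 10 of the 39, 9 of them higher and Hadh lower, beside 4014 of the 18558 genes tested. DESeq2 called 5 by adjusted p and limma-voom 3, all of them higher, beside 2080 and 1725 of all genes. The call of all 3 genes was lost without knockout 1 and control 1, the shallowest library of each group (adjusted p by edgeR 0.0930 for Cpt1a, 0.176 for Ehhadh and 0.124 for Dgat2). Their log2 fold changes without those libraries were 0.72, 0.67 and 0.86. Over all genes, that fit to fewer libraries called 76 higher and 48 lower, against 691 and 621 with all 6 libraries.

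Small positive differences were common in the oxidation arm, while the synthesis and storage arm was more mixed. The log2 fold change, knockout over control, was above 0 for 30 of the 39 genes and for 9245 of the 18558 genes tested. By list it was above 0 for 18 of 21 oxidation genes, 9 of 14 synthesis and storage genes and 3 of 4 regulators. Within synthesis and storage, elongation and desaturation had 2 of 5 above 0. The median log2 fold change was 0.14 over the oxidation arm and 0.13 over the synthesis and storage arm, against -0.002 over all genes tested. All 3 knockout libraries lay above all 3 control libraries for 14 of the 39 genes, or 35.9%, and below them for 2, while 14.0% and 14.1% of all genes tested did so. In either direction the groups were apart for 41.0% of the 39 genes and for 28.0% of all genes tested. These counts describe genes chosen with earlier results of these data known, and they carry no test.

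**Figure D1:**
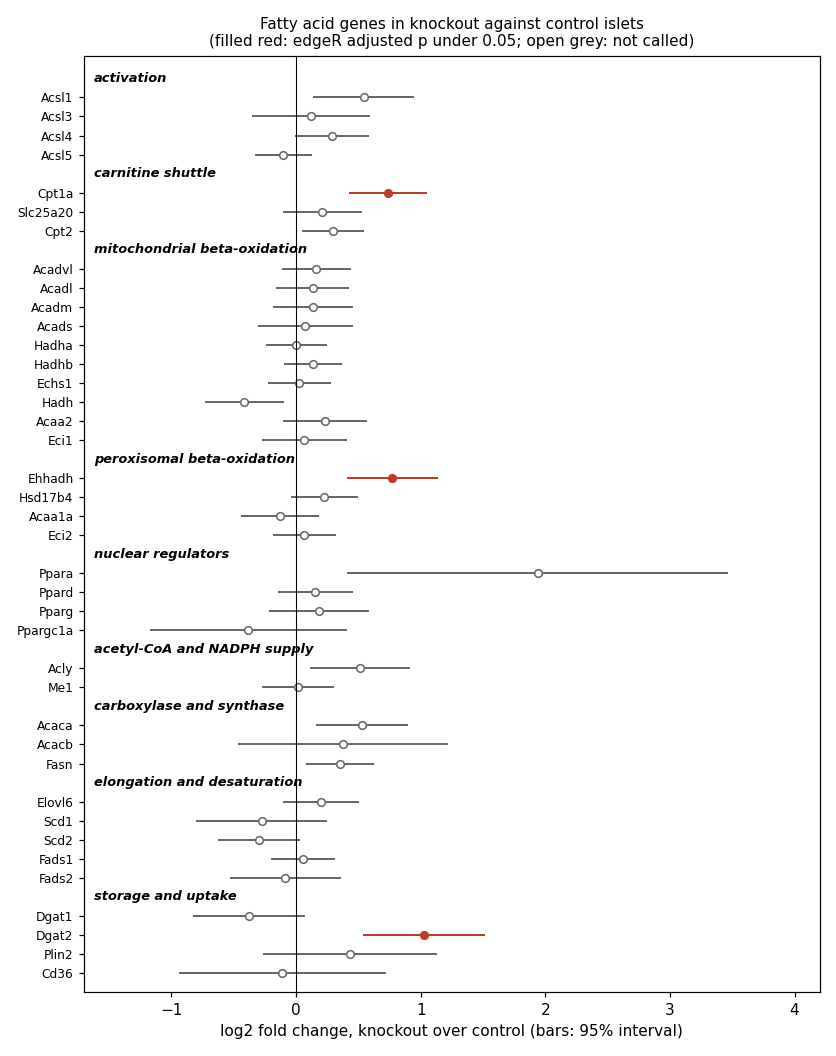
Log2 fold change of each of the 39 genes, knockout over control, on the x axis, with genes listed by role down the page; points are edgeR estimates and bars their 95% intervals. The filled points of Cpt1a, Ehhadh and Dgat2 lie at 0.74, 0.77 and 1.03, and 30 of the 39 points lie above 0.

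CPM is a level relative to the TMM-scaled size of a library, and other islet transcripts moved as well. The 8 beta-cell markers summed to 141082 to 158580 CPM in knockout and 187246 to 241878 CPM in control libraries, and 2 of the 8 fell. Delta, PP and epsilon cell markers summed to 6358 to 8550 CPM in knockout and 8555 to 13980 CPM in control libraries, with 2 of 5 lower. The 6 alpha-cell markers summed to 18786 to 23017 CPM in knockout and 21062 to 32417 CPM in control libraries, and edgeR, DESeq2 and limma-voom called 0, with 3 at an unadjusted p under 0.05. The 7 endothelial markers summed to 227 to 290.0 CPM in knockout and 198 to 224 CPM in control libraries, with Cdh5 higher. The 7 duct markers summed to 1002 to 1482 CPM in knockout and 1747 to 2266 CPM in control libraries, although 2 of the 7 were called higher and 0 lower, and 5 had a log2 fold change above 0 (median 0.29). Sums of 8 stromal markers (105 to 145 CPM in knockout, 104 to 189 CPM in control), 8 immune markers (32.1 to 72.1 and 36.7 to 59.4 CPM) and 5 Schwann cell markers (11.5 to 19.4 and 15.05 to 23.3 CPM) overlapped. Of these 3 lists edgeR called 0 genes, with 1, 0 and 1 at an unadjusted p under 0.05, and DESeq2 and limma-voom called 1 stromal marker each. In bulk islets fewer cells of a type and less RNA per cell cannot be told apart, and the part of these shifts in the results below was not tested.

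Fat cells are a possible source of lipid genes around the pancreas. Among the 10 adipocyte markers, Adipoq measured 0 to 0.225 CPM in knockout and 0 to 0.339 CPM in control libraries. Retn had 0 counts in all 3 knockout libraries and 2 of 3 control libraries. Plin1 measured 0 to 0.388 CPM in knockout and 0.0721 to 0.226 CPM in control libraries. Markers at 0 counts numbered 3, 4 and 2 in knockout 1, 2 and 3. In control 1, 2 and 3 they numbered 3, 4 and 1. The part of fat cells in the fatty acid genes was not tested. The whole list of 10 summed to 149 to 187 CPM in knockout and 181 to 202 CPM in control libraries, most of it from Lpl. Of the 3 adipocyte markers tested, 0 were called by edgeR, 0 had an unadjusted p under 0.05, and DESeq2 and limma-voom called 0. All 3 had a log2 fold change below 0, from -1.78 to -0.06 with a median of -0.21.

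The carnitine shuttle held the clearest rise of the oxidation arm. Cpt1a (ENSMUSG00000024900) measured 39.005, 45.5 and 48.2 CPM in knockout 1, 2 and 3, against 22.6, 26.6 and 30.3 CPM in control 1, 2 and 3. Every knockout library lay above every control library. The means were 44.2 ± 4.72 and 26.5 ± 3.85 CPM (SD, n = 3 each), a 1.67-fold higher level with a log2 fold change of 0.74 (adjusted p by edgeR 0.00893, SE 0.142). The call held in 14 of 15 alternatives, with adjusted p from 3.42e-05 to 0.0930.

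The partners of Cpt1a were not called. Cpt2, which takes the acyl chain off carnitine inside the mitochondrion, measured 55.2, 52.1 and 56.3 CPM in knockout libraries and 45.8, 42.3 and 45.1 CPM in control libraries. The groups did not overlap, with a log2 fold change of 0.30 (adjusted p by edgeR 0.132, SE 0.1099, called higher only with length offsets at 0.0455). For Slc25a20, the carrier that moves acylcarnitine across the inner membrane, the log2 fold change was 0.21 with a 95% interval from -0.10 to 0.52, and control 3 at 19.7 CPM lay above knockout 1 at 19.3 CPM.

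Ehhadh (ENSMUSG00000022853) was the called gene of the peroxisomal cycle, in which its protein carries both the hydratase and the dehydrogenase step. It measured 24.1, 24.5 and 21.6 CPM in knockout 1, 2 and 3, against 11.97, 12.2 and 16.7 CPM in control 1, 2 and 3. Control 3 was the highest control library and still lay below every knockout library. The means were 23.4 ± 1.56 and 13.6 ± 2.67 CPM (SD, n = 3 each), a log2 fold change of 0.77 (adjusted p by edgeR 0.0158, SE 0.166). The call was lost without control 1, control 2 or knockout 1 (adjusted p by edgeR 0.0694, 0.0819 and 0.0577) and held in 11 of 15 alternatives, with adjusted p from 0.000406 to 0.176.

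The other peroxisomal genes stayed within smaller differences. Hsd17b4, the second bifunctional enzyme of peroxisomes, averaged 49.8 ± 1.92 CPM in knockout and 42.6 ± 4.46 CPM in control islets without overlap (log2 fold change 0.23, adjusted p by edgeR 0.299). Eci2, an enoyl-CoA isomerase, had a log2 fold change of 0.07 with a 95% interval from -0.18 to 0.32. Acaa1a, the peroxisomal thiolase, had one of -0.13 with an interval from -0.43 to 0.18, and its reads may be shared with its near-identical neighbour Acaa1b.

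Promoter letters are shown for the called oxidation genes, which were picked because they rose. The windows are the 250 bases before the start in RefSeq's GRCm38.p6 annotation, read 5′ to 3′ on the gene's strand, a build other than the one used for the counts. Capitals mark matches on either strand to the nuclear receptor half-site AGGTCA or to the STAT motif TTCNNNGAA, which do not overlap here. The Cpt1a window is chr19:3323051-3323300 on the plus strand and the Ehhadh window chr16:21787835-21788084 on the minus strand.
Cpt1a: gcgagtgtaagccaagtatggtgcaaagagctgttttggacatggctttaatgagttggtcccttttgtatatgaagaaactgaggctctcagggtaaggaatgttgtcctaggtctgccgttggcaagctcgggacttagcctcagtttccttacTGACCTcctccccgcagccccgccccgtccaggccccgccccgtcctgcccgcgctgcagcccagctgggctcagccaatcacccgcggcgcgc
Ehhadh: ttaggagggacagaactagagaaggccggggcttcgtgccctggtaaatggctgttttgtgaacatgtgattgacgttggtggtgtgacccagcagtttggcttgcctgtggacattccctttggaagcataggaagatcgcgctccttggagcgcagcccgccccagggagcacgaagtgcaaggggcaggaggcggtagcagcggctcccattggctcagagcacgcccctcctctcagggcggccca
Cpt1a held 1 half-site, on the opposite strand and 94 bases before the start, and 0 STAT matches. Neither motif was found in these letters of Ehhadh. Counted by gene, 9 of the 32 members with a promoter window held a half-site and 3 (Cpt2, Hadha and Hadhb) a STAT match. Counted by window, 14.0% and 7.02% of all 32851 promoter windows did. The 2 counts differ in unit and were not tested against each other. The third called gene, Dgat2, had no promoter window. A match is a string of letters and not a shown site, and no match in 250 bases does not show that a site is absent.

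**Figure D2:**
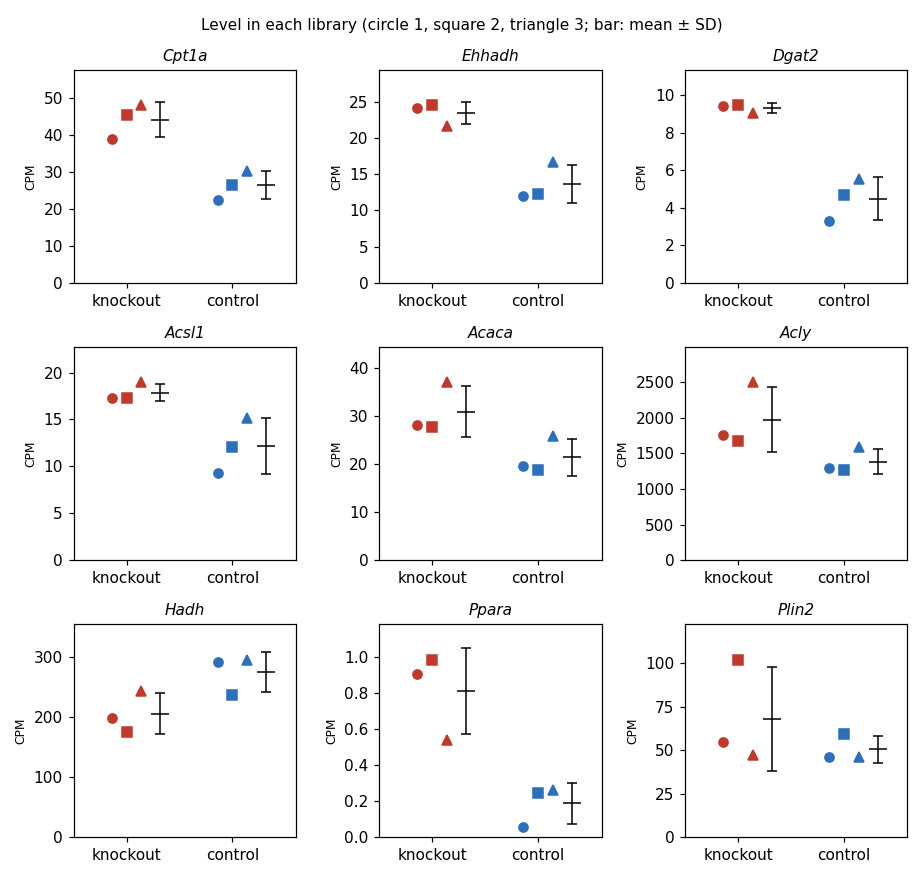
CPM of 9 fatty acid genes in each library on axes from 0, with knockout libraries left of control libraries; symbols mark libraries 1, 2 and 3 and the bars the mean ± SD. Knockout libraries lie wholly above control libraries for Cpt1a, Ehhadh, Dgat2, Acsl1, Acaca, Acly and Ppara, and overlap them for Hadh and Plin2.

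None of the 10 enzymes of mitochondrial beta-oxidation was called by edgeR, with 1 at an unadjusted p under 0.05, and DESeq2 and limma-voom called 0. Their log2 fold changes ran from -0.41 to 0.23, and 9 of the 10 were above 0. The acyl-CoA dehydrogenases, which start each turn of the cycle, had 0.16 for Acadvl (very long chains), 0.13 for Acadl (long chains), 0.14 for Acadm (medium chains) and 0.08 for Acads (short chains). Hadha and Hadhb encode the alpha and beta subunits of the trifunctional protein that finishes the cycle on long chains. Hadha averaged 109 ± 3.67 CPM in knockout and 109 ± 8.32 CPM in control islets, a log2 fold change of 0.001 with a 95% interval from -0.23 to 0.24. Hadhb averaged 111 ± 1.51 and 101 ± 4.62 CPM (log2 fold change 0.14, adjusted p by edgeR 0.493), without overlap between the groups. Echs1 (enoyl-CoA hydratase), Acaa2 (mitochondrial thiolase) and Eci1 (mitochondrial enoyl-CoA isomerase) had log2 fold changes of 0.03, 0.23 and 0.07.

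Hadh was the exception in direction among these enzymes. It encodes the short-chain 3-hydroxyacyl-CoA dehydrogenase, whose loss in humans causes insulin release in excess, and it was the second most abundant member per length. Its level was 198, 176 and 243 CPM in knockout 1, 2 and 3, against 291, 236 and 295 CPM in control 1, 2 and 3. The groups overlapped, since knockout 3 lay above control 2. With a log2 fold change of -0.41 (SE 0.143) it was not called (adjusted p by edgeR 0.104), and 4 of 15 alternatives called it lower, among them the one without knockout 3 (adjusted p = 0.0272). Hadh was picked out after its values were seen.

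The 4 ACSL genes, which activate long-chain fatty acids to acyl-CoA, did not move as a block. Acsl1 (ENSMUSG00000018796) measured 17.3, 17.3 and 18.9 CPM in knockout 1, 2 and 3, against 9.26, 12.1 and 15.2 CPM in control 1, 2 and 3, without overlap. Its log2 fold change was 0.54 (adjusted p by edgeR 0.0983, SE 0.184), and it was called higher without control 3 (0.0385) and without a filter on low counts (0.0412). An opposite-strand transcript overlaps 1039 bases of its exons in the GRCm38 annotation, and the sources used here give no strand setting for the counts. Exons of other members overlap those of other genes too, among them Acadvl (1151 bases) and Acsl5 (404 bases) on the opposite strand and Acsl3 (244 bases) on the same strand. Acsl4, which prefers arachidonic acid, averaged 32.6 ± 4.03 CPM in knockout and 26.9 ± 0.779 CPM in control islets without overlap (adjusted p by edgeR 0.232). Acsl5, the ACSL gene with the highest level per length, averaged 75.8 ± 2.47 and 81.4 ± 1.63 CPM, lower in all 3 knockout libraries with a log2 fold change of -0.10 (adjusted p by edgeR 0.624). Acsl3 had a log2 fold change of 0.12 with a 95% interval from -0.34 to 0.59.

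No regulator was called by edgeR: 1 of the 4 had an unadjusted p under 0.05, and DESeq2 and limma-voom called 0. Ppara, which encodes the fatty acid receptor PPARalpha, had 14, 79 and 57 counts in knockout 1, 2 and 3, against 1, 20 and 58 counts in control 1, 2 and 3. As CPM these were 0.906, 0.986 and 0.540 in knockout and 0.0565, 0.249 and 0.262 in control libraries. Every knockout library lay above every control library, with a log2 fold change of 1.94 and a wide 95% interval from 0.42 to 3.46 (adjusted p by edgeR 0.121, and 0.0542 to 0.328 over the 14 alternatives that tested it). A count of 3, taken as the floor, equals 0.169 CPM in control 1, so Ppara lay under it there. Such floors cover counting error only.

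Ppard, the receptor PPARdelta, averaged 47.8 ± 2.79 CPM in knockout and 42.8 ± 6.97 CPM in control islets, with the groups overlapping. Pparg, the receptor best known from fat cells, averaged 15.7 ± 1.06 and 13.8 ± 3.11 CPM, also with overlap. Ppargc1a, a coactivator of mitochondrial genes, was low in all libraries, at 1.17 to 1.69 CPM in knockout and 1.72 to 2.14 CPM in control libraries (log2 fold change -0.38, adjusted p by edgeR 0.597).

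In the synthesis arm the enzymes that commit citrate to palmitate lay on the positive side without passing the test. Acly, ATP-citrate lyase, which makes cytosolic acetyl-CoA, measured 1753, 1664 and 2492 CPM in knockout 1, 2 and 3, against 1293, 1268 and 1586 CPM in control 1, 2 and 3. Acaca (ENSMUSG00000020532), the carboxylase that makes malonyl-CoA for synthesis, measured 28.1, 27.6 and 36.9 CPM in knockout libraries, against 19.5, 18.8 and 25.8 CPM in control libraries. Fasn, the fatty acid synthase, measured 95.6, 109 and 126 CPM in knockout libraries, against 85.2, 81.4 and 92.6 CPM in control libraries. In each of these genes the groups did not overlap, and library 3 was the highest of its group.

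The log2 fold changes were 0.51 for Acly (adjusted p by edgeR 0.113, SE 0.181), 0.53 for Acaca (SE 0.167, 0.0774) and 0.35 for Fasn (SE 0.123, 0.109). Acly and Acaca were called higher by DESeq2 (adjusted p 0.0264 and 0.0404), with the acinar covariate (0.0153 and 0.0196) and without a filter (0.00634 and 0.0139), and Acaca also without control 3 (0.0299). With length offsets Acaca and Fasn had log2 fold changes of 0.34 and 0.20 (adjusted p 0.150 and 0.227), and without knockout 3 Acly had one of 0.31 (0.357). Fasn was called in 0 of 15 alternatives, with adjusted p from 0.0516 to 0.347. Acacb, the carboxylase of the mitochondrial surface whose malonyl-CoA acts on CPT1, was low at 2.28 to 4.27 CPM in knockout and 1.49 to 3.84 CPM in control libraries, with overlap. Me1, the malic enzyme that supplies NADPH, averaged 41.5 ± 4.65 and 41.3 ± 4.04 CPM, a log2 fold change of 0.01 with a 95% interval from -0.27 to 0.30.

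The 5 genes of elongation and desaturation were not called by edgeR, none had an unadjusted p under 0.05, and DESeq2 and limma-voom called 0. Elovl6, the elongase that turns palmitate into stearate, averaged 21.3 ± 0.413 CPM in knockout and 18.6 ± 1.40 CPM in control islets without overlap (log2 fold change 0.20, adjusted p by edgeR 0.449). The stearoyl-CoA desaturase genes Scd1 and Scd2 had log2 fold changes of -0.27 and -0.30, with 95% intervals from -0.79 to 0.24 and from -0.62 to 0.03. Both were highest in control 1, at 20.2 and 129 CPM, and without that library Scd1 had a log2 fold change of 0.01. Fads1 and Fads2, the delta-5 and delta-6 desaturases of polyunsaturated fatty acids, had log2 fold changes of 0.05 and -0.09 with overlapping groups.

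**Figure D3:**
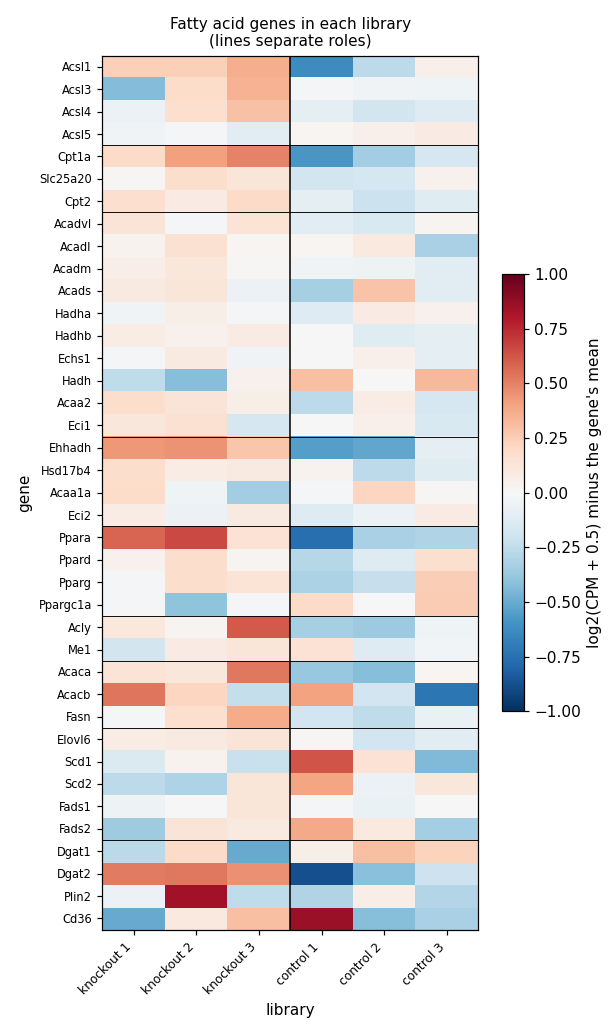
Each of the 39 genes (rows, with lines between roles) in each of the 6 libraries (columns, knockout left of control); colour is log2(CPM + 0.5) minus the gene's mean over the libraries, red above it and blue below. Cpt1a, Ehhadh and Dgat2 are red in all 3 knockout libraries and blue in all 3 control libraries, Acly and Acaca are reddest in knockout 3, and Plin2 is high in knockout 2 and Cd36 in control 1.

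Storage and uptake held the remaining called gene. Dgat2 (ENSMUSG00000030747) measured 9.44, 9.46 and 9.03 CPM in knockout 1, 2 and 3, against 3.27, 4.68 and 5.51 CPM in control 1, 2 and 3. The 3 knockout libraries were close to each other and all above the control libraries. The means were 9.31 ± 0.247 and 4.49 ± 1.13 CPM (SD, n = 3 each), a 2.04-fold higher level with a log2 fold change of 1.03 (adjusted p by edgeR 0.0164, SE 0.223). Without control 2 or knockout 1 the call was lost (adjusted p by edgeR 0.0617 and 0.0548), and it held in 12 of 15 alternatives, with adjusted p from 0.000472 to 0.124.

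Dgat1, the other enzyme that makes triglyceride, went the opposite way without passing the test. It averaged 9.71 ± 2.57 CPM in knockout and 12.6 ± 1.11 CPM in control islets, a log2 fold change of -0.38 (95% interval from -0.82 to 0.07, adjusted p by edgeR 0.316). On the scale of CPM per kilobase of exon, Dgat2 and Dgat1 stood at 3.02 and 3.18 in knockout islets and at 1.46 and 4.13 in control islets. Whether the difference between these 2 genes changed was not tested.

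Plin2, the coat protein of lipid droplets, measured 54.5, 102 and 47.6 CPM in knockout 1, 2 and 3, against 45.9, 59.4 and 46.3 CPM in control 1, 2 and 3. Knockout 2 stood apart, and its log2 fold change of 0.43 was not called (adjusted p by edgeR 0.461). The 12 acinar markers, genes of the digestive-enzyme cells around islets, summed to 41247, 84612 and 24677 CPM in knockout 1, 2 and 3 and to 40449, 63176 and 31317 CPM in control 1, 2 and 3. Their highest library in each group was thus also the highest for Plin2, 0 of the 12 were called by any of the 3 tools or had an unadjusted p under 0.05. In the fit with the acinar sum as a covariate Plin2 had a log2 fold change of 0.34 and was not called (edgeR's adjusted p at 0.0807). Cd36, the fatty acid receptor of the cell surface, measured 3.10, 4.97 and 5.82 CPM in knockout libraries, against 8.81, 3.31 and 3.58 CPM in control libraries. Control 1 lay above all other libraries, and the log2 fold change was -0.11 with a 95% interval from -0.93 to 0.71.

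**Figure D4:**
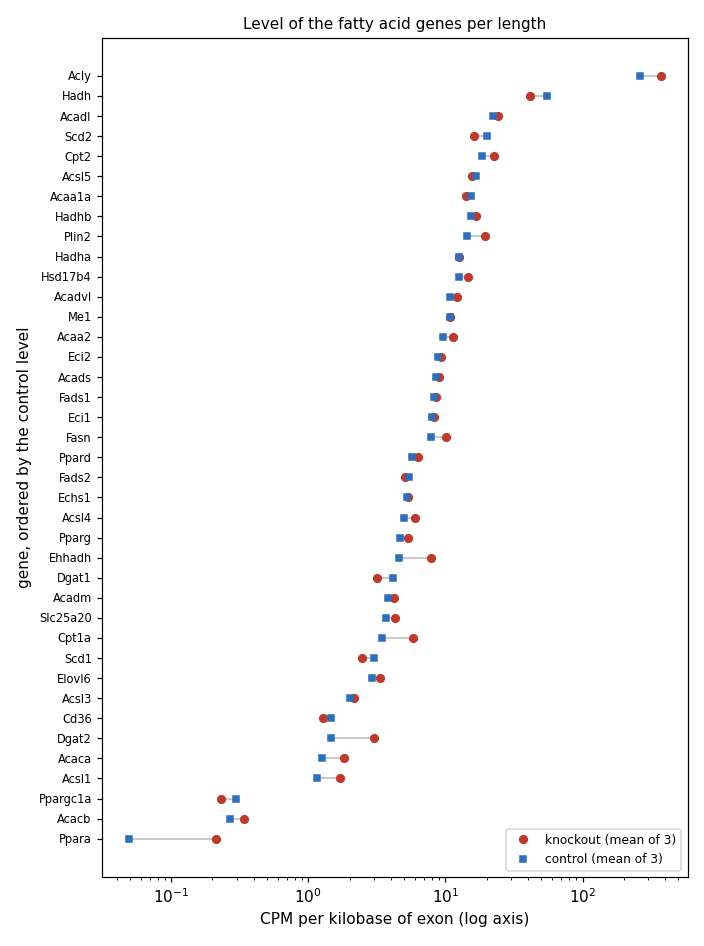
Mean level of each gene in CPM per kilobase of exon on a log axis, knockout as circles and control as squares, with genes ordered by their control level. Acly lies at 373 in knockout and 262 in control islets, above all other members, and Ppara at 0.211 and 0.0493 is the lowest.

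Levels per length spread over several orders of magnitude within the group. Acly stood at 373 CPM per kilobase in knockout and 262 in control islets, followed by Hadh at 41.3 and 55.1, and by Acadl at 24.3 and 22.2. Cpt2 stood at 22.8 and 18.6 CPM per kilobase, above Cpt1a at 5.79 and 3.46 and Slc25a20 at 4.26 and 3.68. Acaca, at 1.81 in knockout and 1.25 in control islets, exceeded Acacb at 0.341 and 0.267. Lengths are unions of all annotated exons, so a gene with many rare exons appears lower than its main transcript is. All 39 genes together took 0.312% to 0.464% of the counts in knockout and 0.249% to 0.310% in control libraries, with Acly as the main part.

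Other genes of the same pathways were read from 2 longer lists. Of 46 further oxidation genes tested, 1 rose and 2 fell, 6.52% of them against 7.07% of all genes, with a median log2 fold change of 0.04. Ucp2, a carrier of the mitochondrial inner membrane, averaged 416 ± 38.99 CPM in knockout and 242 ± 24.2 CPM in control islets (log2 fold change 0.78, SE 0.127, adjusted p by edgeR 0.00331). Oxct1, the enzyme that lets cells burn ketone bodies, averaged 50.4 ± 6.28 and 81.8 ± 9.54 CPM (log2 fold change -0.69, SE 0.131, adjusted p by edgeR 0.00807, and 0.0516 without knockout 1). Acot13, an acyl-CoA thioesterase, averaged 28.1 ± 2.06 and 38.6 ± 0.793 CPM (log2 fold change -0.46, adjusted p by edgeR 0.0390). Its call was lost whichever library was left out, with adjusted p from 0.0595 to 0.168, and with length offsets (0.222, log2 fold change -0.26).

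Of 60 further synthesis and storage genes tested, 1 rose and 3 fell, 6.67% of them, with a median log2 fold change of 0.03. Lpin1, a phosphatidate phosphatase that makes the diacylglycerol used by DGAT enzymes, averaged 37.2 ± 5.62 CPM in knockout and 19.2 ± 3.01 CPM in control islets (log2 fold change 0.96, SE 0.158, adjusted p by edgeR 0.00369). Hsd17b12, the ketoacyl-CoA reductase of chain elongation, averaged 52.9 ± 2.43 and 80.2 ± 1.74 CPM (log2 fold change -0.60, SE 0.105, adjusted p by edgeR 0.00521). Mecr, of the separate mitochondrial synthesis pathway, had a log2 fold change of -0.73 (adjusted p by edgeR 0.0297), a call that held without control 3 (0.0409) and was lost when any other library was left out (0.0501 to 0.156). Fabp3, a fatty acid-binding protein of the cytosol, had one of -0.70 (adjusted p by edgeR 0.0413), a call lost whichever library was left out (0.0653 to 0.153) and with length offsets (0.136). All 7 calls of both lists were lost without knockout 1 and control 1, where the adjusted p ran from 0.0689 for Lpin1 to 0.216 for Acot13.

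A list of 11 genes around growth hormone and prolactin signalling was chosen with earlier results of these data known. It held response genes, the receptors Prlr and Ghr, Stat5a and Stat5b, and the leucine breakdown gene Ivd. Of the 11, 7 were called higher in the same knockout libraries, Stat5b and Ivd among them, and 0 lower. Over all genes tested, 3.72% were called higher and 3.35% lower. Cish, a feedback inhibitor of STAT5, measured 74.6, 67.2 and 50.1 CPM in knockout 1, 2 and 3, against 17.6, 16.3 and 15.3 CPM in control 1, 2 and 3. Socs2, another such inhibitor, measured 103, 76.8 and 64.4 CPM in knockout libraries, against 28.8, 27.6 and 24.0 CPM in control libraries. In both genes every knockout library lay above every control library. The part of growth hormone and prolactin signalling in Cpt1a, Ehhadh or Dgat2 was not tested.

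**Figure D5:**
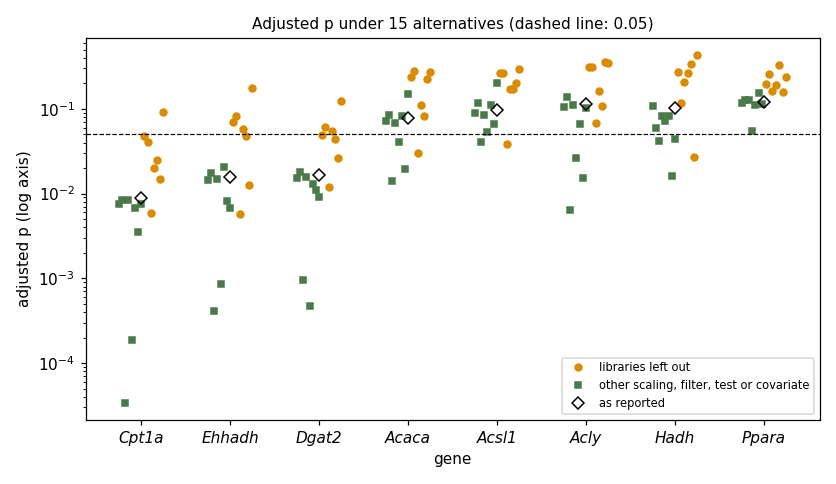
Adjusted p of 8 members on a log axis under 15 alternatives, with circles where libraries were left out, squares for another scaling, filter, test or covariate, and diamonds for the reported value. Cpt1a lies under the dashed line at 0.05 in 14 of 15 alternatives, Ehhadh in 11 and Dgat2 in 12, while Ppara lies above it in all 14 that tested it.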

How the data were processed

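The deposited table holds raw read counts as whole numbers, for 56980 gene IDs and 6 libraries. The submitters' processing notes name the build GRCm39 (mm39), the aligner STAR (2.7.3a), the counter featureCounts, the trimmer Trim Galore (0.6.7) and FastQC (0.11.9). They give neither the annotation release nor the strand setting nor the handling of read pairs. Between 62.3% and 73.2% of nonzero counts in a library were even, as when the mates of a pair are counted singly. Column names give the group and not the animal, so libraries are numbered after the columns. Same-group libraries differed beyond sampling noise (the lowest chi-square averaged over genes was 39.8), and all 6 were kept.

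Symbols were matched for 52073 IDs through GENCODE M21, and exon lengths for 97.6% of genes tested and all 39 members. In R 4.3.3, edgeR 4.0.16 tested 18558 genes (filterByExpr, TMM, quasi-likelihood with robust shrinkage), with Benjamini-Hochberg adjustment over all of them and calls at an adjusted p under 0.05. SE and 95% intervals derive from that test. It was also run on counts simulated from the data's mean levels and edgeR's own dispersions, which did not check the intervals. Alternatives were RLE and upper-quartile factors, no filter, a filter of 1 CPM in 3 libraries, DESeq2 1.42.0, limma-voom (limma 3.58.1), an acinar covariate, length offsets and libraries left out. Members and lists were chosen with earlier results of these data known. Members past the threshold, or separated with an adjusted p under 0.1, were given by library, as were members singled out after their values were seen (Cpt2, Hadh, Acly, Fasn, Ppara, Plin2 and Cd36). Of the further lists, called genes were named.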

Additional observations from a re-analysis of the deposited data

How the results depend on the processing

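No paired analysis was possible because the column names carry no animal and the labels of the groups share only 1 number. Over all genes, the higher and lower calls numbered 1094 and 986 with DESeq2, 1076 and 955 with the acinar covariate, 1222 higher without a filter, and 76 and 48 without both shallow libraries (knockout 1 and control 1), and 295 to 719 and 224 to 590 with 1 library left out. The causes of these shifts were not tested, but fewer samples entered the last 2 fits. In the oxidation arm, 0 genes were called higher without both shallow libraries and 1 to 3 with 1 library left out. A single lower call there, Hadh each time, came without a filter, with the acinar covariate and with length offsets (1 each), and the range was 0 to 1 with 1 library left out. Of the synthesis and storage genes, 3 were called higher without a filter, with DESeq2 and with the acinar covariate, 0 without both shallow libraries and 0 to 2 with 1 library left out. The further pathway genes called numbered 0 without both shallow libraries and 3 to 6 with 1 library left out. The median log2 fold change of the oxidation arm was 0.086 with upper-quartile factors, 0.17 with length offsets and 0.12 to 0.16 with 1 library left out. That of the synthesis and storage arm was 0.30 with limma-voom, 0.073 with length offsets, 0.35 without both shallow libraries and 0.042 to 0.30 with 1 library left out. No called gene changed direction.

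Among the 39 genes, sign changes were confined to 8 uncalled ones, given here as log2 fold changes. Upper-quartile factors moved the median of all genes tested to -0.051, against -0.0016 with TMM factors, and the values under them carry that shift. Hadha was at -0.047 with upper-quartile factors, -0.0058 with a filter of 1 CPM, -0.0040 with limma-voom, -0.00054 with the acinar covariate, -0.11 with length offsets and -0.038 without both shallow libraries. Echs1 was at -0.024 with upper-quartile factors and -0.082 with length offsets, and Me1 at -0.037 with upper-quartile factors. Without both shallow libraries Acads was at -0.069, Scd1 at 0.034, Fads2 at 0.23 and Cd36 at 0.65, and with limma-voom Scd1 was at 0.0049, Fads2 at 0.15 and Cd36 at 0.44. With 1 library left out, the values ran from -0.045 to 0.32 for Acsl3, -0.053 to 0.27 for Acads, -0.060 to 0.048 for Hadha, -0.011 to 0.065 for Echs1, -0.042 to 0.11 for Me1, -0.51 to 0.013 for Scd1, -0.26 to 0.090 for Fads2 and -0.35 to 0.45 for Cd36. Depth limits Ppara and Ppargc1a most. Log2 fold changes were higher for genes with a longer total exon length (Spearman's rho 0.212 across genes, which are not independent replicates).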
